A study of Homo sapiens with 60 samples.

Results

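The 9 luminal epithelial and secretory genes described here are AGR2, ELF3, MUC1, KRT19, KRT18, KRT8, KRT7, TFF1 and CDH1. They were taken by name from the 38342 genes of the deposited expression table, and all 9 passed a filter of at least 1 FPKM, a read density scaled by transcript length and by library size, in at least 3 libraries, as did 15866 genes in total. The cells were MDA-MB-231, an established human breast cancer line of the triple-negative, mesenchymal kind, which lacks the estrogen and progesterone receptors. Cultures received DMSO, the solvent control, or BAY2506856 at 100, 300 or 1000 nM, and the labels place them at 1, 3, 6 or 24 h, whereas the design text of the series names only a 24 h harvest. Each of the 4 times had 6 DMSO libraries and 3 libraries per dose, giving 60 libraries in 16 groups. The labels name no target for the compound, no DMSO concentration and no clone of the line. They do not say whether replicates came from separate cultures, so every p-value here measures the spread between libraries, which may be technical.

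Luminal cells line the ducts and alveoli of the breast and face the secretions. They hold a scaffold of simple keratins, in which each type I keratin (KRT18, KRT19) pairs with a type II keratin (KRT7, KRT8), and E-cadherin, the product of CDH1, joins neighbouring cells at adherens junctions. MUC1 is a membrane mucin of the surface that faces the duct, TFF1 is a small secreted peptide of the trefoil family and a classical estrogen receptor target in breast cancer, AGR2 is a protein disulfide isomerase of the endoplasmic reticulum that helps secreted proteins to fold, and ELF3 is an ETS transcription factor found in epithelia. MDA-MB-231 cells are known for low E-cadherin and high vimentin while still expressing simple keratins.

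The deposited values were log2(FPKM + 1), from which FPKM and whole reads were recovered. The libraries were unequal in depth (0.475 to 86.5 M reads, median 11.2 M), and 3 libraries had under 2 M reads (DMSO 24 h replicate 2, 300 nM 24 h replicate 2 and 1000 nM 3 h replicate 2). The values also separated 3 library types that the labels do not mention. They were told apart by 12 pseudogenes and by the mitochondrial gene MT-ND6, with 41 libraries of the first type, 13 of the second and 6 of the third. At 24 h the second type held DMSO replicate 2, 300 nM replicate 2 and 1000 nM replicates 1 and 3, and the third type held only DMSO libraries of 1 h and 3 h. Of the markers of the labelled cell line, vimentin (VIM) stood at 417 ± 17.8 FPKM (SD, n = 6) in DMSO at 24 h. ESR1, the estrogen receptor gene, was at 0.00263 FPKM or less in every library. Among 13 listed mesenchymal genes with values, 10 passed the filter. CDH2, ZEB2 and SPARC, named after their values were seen, did not, so VIM alone describes the mesenchymal state only in part. CYR61 and CTGF, textbook target genes of YAP1 and TAZ, give a scale for the response. They stood at -4.15 and -3.66 on the log2 scale at 1000 nM and 24 h.

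The deposited table was made on hg19 and gives no coordinates, but RefSeq promoter windows on GRCh38.p14 were at hand for 4 of the 9 members (AGR2, ELF3, MUC1 and KRT8). The 250 bases before the start of 3 members that rose at 24 h are printed to show how unlike these promoters are. Capitals mark matches to motifs searched on both strands: GGAATG for TEAD factors, CCGGAA for ETS factors, TGANTCA for AP-1, TGTTTAC for forkhead factors, CACCTG for the E-box bound by ZEB and SNAI repressors, CCACCC for KLF factors, the estrogen response element, and TATAAA, which was added after the sequences had been read.
AGR2, chr7:16805000-16805249, minus strand: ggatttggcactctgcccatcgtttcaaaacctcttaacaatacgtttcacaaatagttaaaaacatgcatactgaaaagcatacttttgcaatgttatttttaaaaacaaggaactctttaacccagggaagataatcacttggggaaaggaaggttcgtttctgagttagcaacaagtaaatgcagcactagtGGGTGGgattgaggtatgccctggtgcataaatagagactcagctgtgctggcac
ELF3, chr1:202010337-202010586, plus strand: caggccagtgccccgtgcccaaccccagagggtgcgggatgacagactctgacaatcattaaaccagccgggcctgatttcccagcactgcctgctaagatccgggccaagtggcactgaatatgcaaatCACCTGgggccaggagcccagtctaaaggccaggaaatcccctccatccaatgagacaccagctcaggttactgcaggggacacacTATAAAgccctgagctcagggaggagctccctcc
MUC1, chr1:155192916-155193165, minus strand: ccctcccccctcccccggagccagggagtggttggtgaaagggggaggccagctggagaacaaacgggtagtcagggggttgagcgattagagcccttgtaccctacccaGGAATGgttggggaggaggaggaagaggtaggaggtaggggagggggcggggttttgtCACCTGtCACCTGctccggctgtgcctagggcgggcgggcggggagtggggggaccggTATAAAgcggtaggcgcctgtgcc
The AGR2 window is 40.4% G and C, against 58.4% for ELF3 and 66% for MUC1 and a median of 58% over all windows. Its only match was the KLF motif on the opposite strand, which starts 55 bases before the gene and which 31.3% of 35116 RefSeq windows of this length also hold. ELF3 and MUC1 both held CACCTG (17.5% of windows) and TATAAA (10.7%), with 1 E-box in ELF3, 2 neighbouring E-boxes in MUC1 (82 and 75 bases before the start), and TATAAA 34 and 24 bases before the start. MUC1 alone of these held GGAATG (11.9% of windows), 140 bases before the start. A second listed MUC1 start, 6 bases away, gives the same set of matches. The window of KRT8, which did not pass the test at any dose, held 1 ETS match (14.5% of windows). No match to AP-1, forkhead or estrogen response motifs (6.57%, 2.98% and 0.0399% of windows) lay in any of the 4. These are matches of letters and not measured binding.

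**Figure D1:**
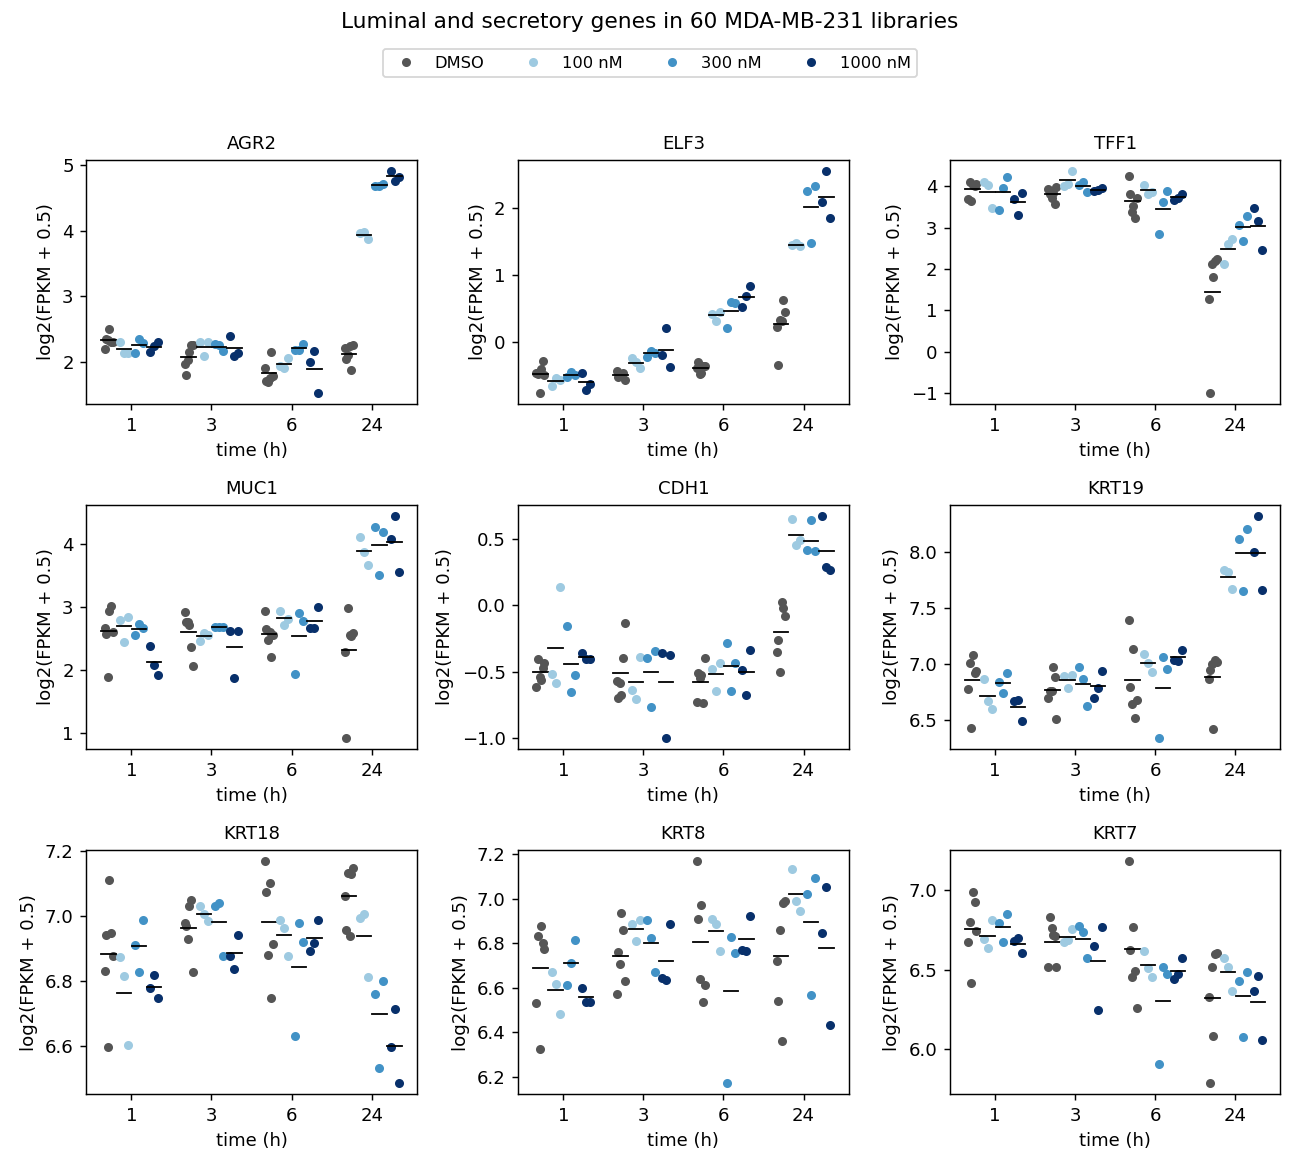
Level of each of the 9 genes in all 60 libraries, as log2(FPKM + 0.5) on the vertical axis (the scale differs between panels) against time in h, with colour for dose and a black bar for each group mean. AGR2, MUC1, CDH1 and KRT19 stand above DMSO in every treated library of 24 h, ELF3 is already above DMSO in every treated library of 3 h and 6 h, and TFF1 falls in DMSO at 24 h.

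At 24 h, 6 of the 9 genes were higher and 1 was lower at 1000 nM in limma (Benjamini-Hochberg adjusted p under 0.05). Of all 15866 genes tested, 34.7% passed in either direction, 19.1% higher and 15.6% lower. The 6 higher genes were AGR2, ELF3, MUC1, KRT19, TFF1 and CDH1, the lower gene was KRT18, and KRT8 and KRT7 did not pass. CDH1 passed the filter of 1 FPKM only through treated libraries of 24 h, and ELF3 mainly through treated libraries. Their place in these counts is therefore not separate from the filter. The counts at 300 nM were also 6 higher and 1 lower (30.7% of all genes passed, 16.5% higher and 14.2% lower), and at 100 nM 6 higher and 0 lower (19.7% of all genes, 10.5% higher and 9.2% lower). The median log2 change of the 9 genes was 1.11, 1.11 and 0.89 at 1000, 300 and 100 nM, where the median of all tested genes was 0.03, 0.05 and 0.05. Treated and DMSO libraries did not overlap for 7, 7 and 5 of the 9 genes at 1000, 300 and 100 nM, a pattern found in 22.8%, 24.1% and 26.7% of all genes. The 3 doses share the same 6 DMSO libraries at each time, so their changes are not independent of each other. These are bulk libraries, in which more cells expressing a gene and more RNA per cell cannot be told apart.

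**Figure D2:**
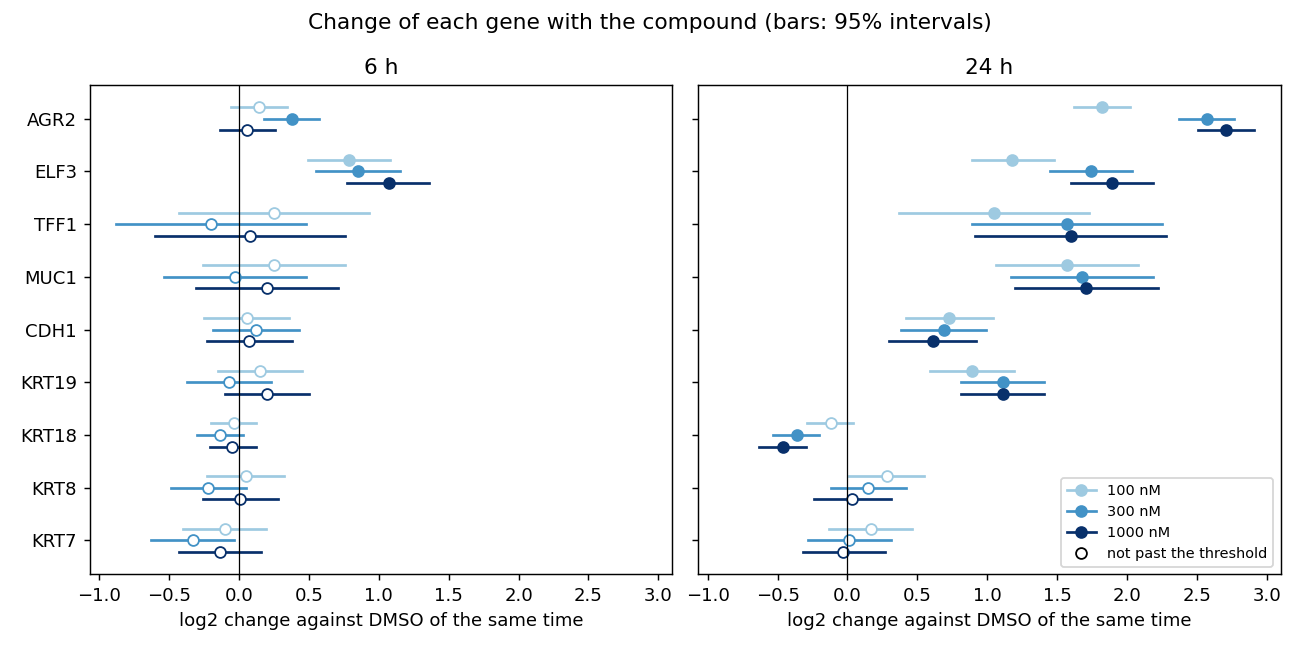
Log2 change of each gene against DMSO of the same time at 6 h (left) and 24 h (right), with 95% intervals from limma as bars and filled points where the adjusted p was under 0.05. At 6 h ELF3 passed at all 3 doses and AGR2 at 300 nM only, and at 24 h 6 genes lay to the right of 0 while KRT18 lay to the left at 300 and 1000 nM.

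ELF3, the transcription factor of the group, was the only 1 of the 9 to stand above DMSO at every dose at 3 h and at 6 h. At 1 h its groups overlapped with DMSO, with means 0.747, 0.962 and 0.722 times that of DMSO at 100, 300 and 1000 nM. At 3 h the 6 DMSO libraries held 0.176 to 0.239 FPKM (median 0.209), and the 3 libraries of each dose lay above all of them. The treated libraries ranged from 0.261 to 0.345 FPKM at 100 nM, 0.358 to 0.413 at 300 nM and 0.268 to 0.654 at 1000 nM. ELF3 did not overlap with DMSO at any dose, a pattern shared by 3.47%, 4.86% and 2.14% of all genes at 100, 300 and 1000 nM. The log2 changes at 3 h were 0.18, 0.32 and 0.37 and did not pass the threshold (adjusted p = 0.999, 0.821 and 0.563 in limma). These levels rest on few reads, 3 to 83 per library in DMSO and 7 to 38 in treated cells. Of the other members only TFF1 at 100 nM was also without overlap at 3 h (0.34, limma adjusted p = 0.999).

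At 6 h ELF3 passed at every dose. DMSO libraries held 0.217 to 0.312 FPKM (median 0.271), and the means of the treated groups were 0.816 ± 0.0615 FPKM at 100 nM, 0.885 ± 0.196 at 300 nM and 1.10 ± 0.177 at 1000 nM (SD, n = 3 each). The log2 changes were 0.79 ± 0.15, 0.85 ± 0.15 and 1.07 ± 0.15 (SE), with adjusted p = 0.00138, 0.000216 and 2.57e-06 in limma. On FPKM itself the means were 3.10, 3.37 and 4.20 times that of DMSO. The fitted changes are smaller because the 0.5 FPKM added before the log weighs on a gene this low.

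ELF3 was the only member past the threshold at 1000 and 100 nM at 6 h, where 2.01% of all genes (0.706% higher, 1.3% lower) and 0.863% (0.208% higher, 0.655% lower) passed. At 300 nM AGR2 passed with it, and 1.67% of all genes did (0.561% higher, 1.11% lower). At 24 h ELF3 in DMSO had itself moved up, to 0.287 to 1.04 FPKM (median 0.752). Every treated library was higher still, at 2.20 to 2.27 FPKM with 100 nM, 2.27 to 4.49 with 300 nM and 3.08 to 5.35 with 1000 nM. The log2 changes were 1.18, 1.74 and 1.89 ± 0.15 (SE), with limma adjusted p = 4.4e-08, 2.72e-13 and 1.43e-14. The lowest library at 300 nM, at 2.27 FPKM, is the replicate of the second library type with 1.89 M reads.

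AGR2, the disulfide isomerase, had the largest fitted change of the 9 genes at each dose at 24 h. The DMSO libraries ranged from 3.19 to 4.27 FPKM (median 3.98). The 100 nM libraries held 15.2, 15.4 and 14.1 FPKM, the 300 nM libraries 25.1, 25.2 and 25.8, and the 1000 nM libraries 29.7, 26.7 and 27.8. No library of 1 dose overlapped with another dose or with DMSO. The 300 and 1000 nM libraries lay close, however, and their difference did not pass in limma (0.14, adjusted p = 0.905). The share of all genes with such a separation between doses was not counted. The group means were 3.84, 6.54 and 7.24 times that of DMSO, and the log2 changes were 1.82, 2.57 and 2.71 ± 0.10 (SE), with limma adjusted p = 3.36e-19, 7.96e-26 and 7.58e-27.

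At earlier times AGR2 differed little from DMSO. At 1 h all 15 libraries lay between 3.89 and 5.19 FPKM and at 3 h between 2.99 and 4.76 FPKM. At 6 h the 300 nM libraries held 4.03, 4.06 and 4.33 FPKM, above the 6 DMSO libraries (2.74 to 3.94 FPKM), a separation found in 5.02% of all genes. The log2 change of 0.38 ± 0.10 passed in limma (adjusted p = 0.0375), but those at 100 and 1000 nM did not (0.14 and 0.06, adjusted p = 1 for each). The call at 300 nM ended when any 1 of the 3 treated libraries or of DMSO replicates 2, 3, 4 and 6 was left out, with adjusted p between 0.0627 and 0.198. The 1000 nM effect on AGR2 was 2.65 ± 0.14 larger at 24 h than at 6 h (adjusted p = 1.17e-19, limma), while the effects at 6 h and 3 h differed by -0.06 (adjusted p = 0.962).

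TFF1, the trefoil peptide, followed another course, since its level fell in control cells. Mean DMSO levels were 14.8 ± 2.04 FPKM after 1 h, 13.5 ± 1.43 after 3 h, 12.4 ± 3.49 after 6 h and 2.84 ± 1.64 after 24 h (SD, n = 6 each). The 6 DMSO libraries of 24 h held 0 to 4.23 FPKM (median 3.44), all below the lowest of the 18 earlier DMSO libraries (8.88 FPKM). DMSO at 24 h against 1 h gave a log2 change of -2.49 ± 0.28 (limma adjusted p = 4.11e-09). In that comparison 1 member was higher (ELF3) and 2 were lower (TFF1 and KRT7), and 18.2% of all genes passed (9.78% higher, 8.45% lower).

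Treated cells had more TFF1 than DMSO at 24 h, but less than any group of 1 to 6 h on average. The libraries held 3.87, 5.59 and 6.14 FPKM at 100 nM, 7.87, 5.92 and 9.28 at 300 nM, and 10.6, 8.44 and 5.02 at 1000 nM. All 300 and 1000 nM libraries lay above all DMSO libraries, and the 100 nM group overlapped with DMSO. The log2 changes were 1.05, 1.57 and 1.60 ± 0.35 (SE), with limma adjusted p = 0.0254, 0.000323 and 0.000232. The highest treated library of 24 h (10.6 FPKM) lay under the lowest DMSO library of 1 h (12.0 FPKM), but above 2 of the 6 DMSO libraries of 6 h (8.88 and 9.91 FPKM).

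One DMSO library bears heavily on TFF1. Replicate 2 of 24 h has 0 TFF1 reads at a depth of 0.475 M, and a count of 0 there allows up to 11.4 FPKM (3 reads), a limit that covers counting error only. Without it the log2 change at 100 nM was 0.56 (limma adjusted p = 0.0707), and the 100 nM call also ended without 100 nM replicate 2 (0.101) or 3 (0.124). The changes at 1000 and 300 nM were 1.11 and 1.09 without that DMSO library and remained past the threshold. TFF2, the neighbouring trefoil gene, showed the same pair of changes: -2.16 ± 0.28 in DMSO from 1 h to 24 h (adjusted p = 1.28e-07) and 1.58 ± 0.35 at 1000 nM and 24 h (adjusted p = 0.000261, limma).

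MUC1, the membrane mucin, was higher at 24 h at all 3 doses. The DMSO libraries held 1.395 to 7.41 FPKM (median 5.31). The treated libraries held 16.6, 14.1 and 12.2 FPKM at 100 nM, 18.7, 10.8 and 17.7 at 300 nM and 16.4, 21.2 and 11.2 at 1000 nM. Every treated library lay above every DMSO library, and the 3 doses overlapped with each other. Library types were not balanced over the doses, since the 100 nM group held only the first type. Within the first type the libraries held 12.2 to 16.6 FPKM at 100 nM, 17.7 and 18.7 at 300 nM and 21.2 at 1000 nM. Over all libraries, differences between doses can therefore not be told apart from type. The log2 changes were 1.57, 1.68 and 1.71 ± 0.26 (SE), with limma adjusted p = 8.59e-06, 9.46e-07 and 5.18e-07. At 1, 3 and 6 h the MUC1 changes lay between -0.48 and 0.25 and none passed. The low DMSO value of 1.395 FPKM is 2 reads in the library of 0.475 M reads.

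CDH1, which encodes E-cadherin, rose from a very low level. DMSO libraries at 24 h held 0.205 to 0.516 FPKM (median 0.389). The treated libraries held 1.07, 0.867 and 0.901 FPKM at 100 nM, 0.831, 1.06 and 0.825 at 300 nM, and 1.09, 0.721 and 0.704 at 1000 nM. No treated library overlapped with DMSO, and the order of the doses did not follow the dose. The log2 changes were 0.73, 0.69 and 0.61 ± 0.16 (SE), with limma adjusted p = 0.000438, 0.000511 and 0.00169. Within the first library type the change at 1000 nM, which then rests on 1 treated library and on the spread of the other groups, was 0.48 (adjusted p = 0.0654). The treated levels of CDH1 rest on 11 to 430 reads per library. CDH1 reached 1 FPKM only in treated libraries of 24 h (1.07, 1.06 and 1.09 FPKM). It therefore entered the test only through the groups where it was high, and its 24 h calls are not separate from that filter.

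The mean CDH1 level in FPKM was 2.50, 2.39 and 2.22 times that of DMSO at 100, 300 and 1000 nM, and even so it stayed about as low as that of ELF3 in untreated cells at 24 h. At 1 h the 3 libraries of 1000 nM (0.256, 0.257 and 0.281 FPKM) did not overlap with DMSO (0.152 to 0.254 FPKM), as for 1.42% of all genes, with a log2 change of 0.12 (adjusted p = 0.679). CDH1 was at 0 reads in 1000 nM 3 h replicate 2, where a count of 0 allows up to 0.332 FPKM. At 3 and 6 h no CDH1 change passed the threshold, and all lay between -0.07 and 0.12.

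The 4 keratins were by far the most abundant of the members, and they moved apart. KRT19, a type I keratin, rose at 24 h, from 85.1 to 130.8 FPKM (median 125) in DMSO to 228, 225 and 203 FPKM at 100 nM, 277, 201 and 296 at 300 nM, and 255, 320 and 202 at 1000 nM. All treated libraries lay above all DMSO libraries. The log2 changes were 0.89, 1.11 and 1.11 ± 0.15 (SE), with limma adjusted p = 1.68e-05, 8.12e-08 and 6.52e-08. At 1, 3 and 6 h KRT19 did not pass at any dose.

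KRT18, the other type I keratin, was lower at 24 h at the upper doses. DMSO libraries held 122 to 141 FPKM (median 136). The 300 nM libraries held 108, 92.02 and 111 FPKM and the 1000 nM libraries 96.4, 104 and 89.1, all below the DMSO libraries, while the 100 nM libraries (127, 128 and 112 FPKM) overlapped with them. The log2 changes at 300 and 1000 nM were -0.36 and -0.46 ± 0.08 (SE), with limma adjusted p = 0.000549 and 1.45e-05, and the change at 100 nM was -0.12 (adjusted p = 0.335). The change was small beside those of AGR2 and ELF3, and it was in the opposite direction to that of KRT19.

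The type II keratins did not pass at any dose or time. KRT8 at 24 h held 81.7 to 127 FPKM in DMSO (median 110), 123 to 140 at 100 nM, 94.3 to 136 at 300 nM and 85.9 to 132 at 1000 nM. Its log2 changes were 0.28 (95% interval 0.01 to 0.55, limma adjusted p = 0.162), 0.15 (-0.12 to 0.42) and 0.03 (-0.24 to 0.31). KRT7 held 54.5 to 97.0 FPKM in DMSO and 65.8 to 94.7 over the 9 treated libraries of 24 h, with log2 changes of 0.17, 0.01 and -0.03 (95% interval at 1000 nM -0.32 to 0.27). Changes of either gene by up to about 0.3 on the log2 scale at 1000 nM therefore lie within these intervals.

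**Figure D3:**
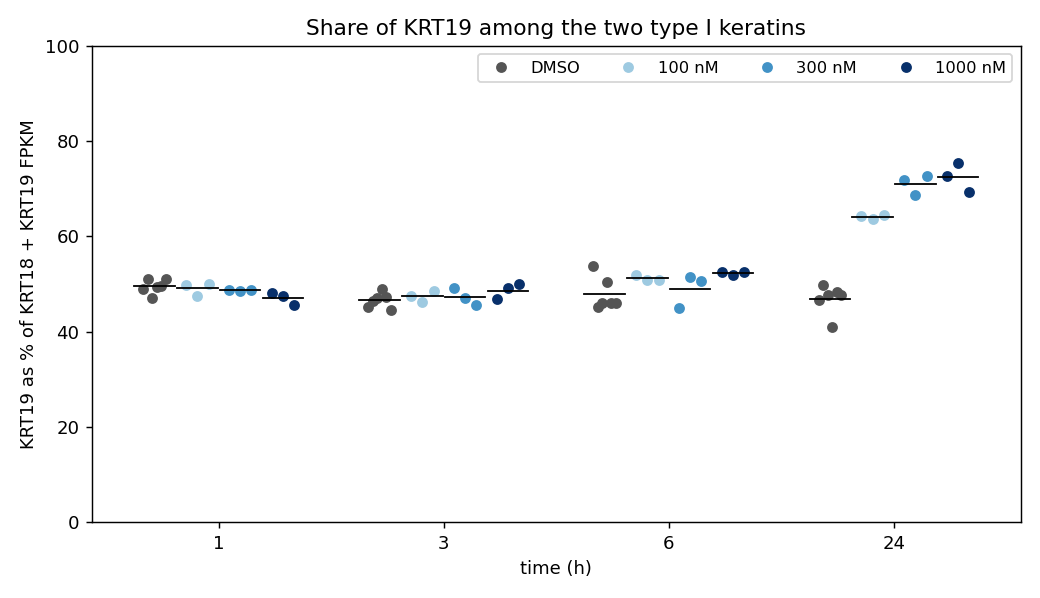
Share of KRT19 in the summed FPKM of the type I keratins KRT18 and KRT19, in percent, for each of the 60 libraries against time in h, with colour for dose and bars for group means. The share stays between 41.1% and 53.9% in DMSO and in all treated libraries up to 6 h, and lies at 63.7% to 75.4% in the treated libraries of 24 h.

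As a result of these opposite changes, KRT19 took up more of the message of the 2 type I members at 24 h. Its share of the summed KRT18 and KRT19 FPKM was 46.9% ± 3.04 (SD, n = 6) in DMSO, 64.1% ± 0.394 at 100 nM, 71.1% ± 2.17 at 300 nM and 72.5% ± 2.98 at 1000 nM (SD, n = 3 each). The share of KRT8 in the summed KRT7 and KRT8 FPKM was 57.3% ± 2.82 in DMSO and 58.4% ± 1.81 at 1000 nM. These shares were computed after the changes of the single genes were known and carry no test of their own.

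Levels of KRT8 and KRT18 are uncertain because reads of their many processed pseudogenes can be exchanged with theirs. The table lists 50 KRT8 and 67 KRT18 pseudogenes, which held 41.5% to 50.5% and 42.4% to 45.2% of the reads of their families in the DMSO libraries of 24 h. KRT19 has 3 listed pseudogenes with 5.05% to 8.55% of its family's reads, and KRT7 has none. For KRT18 the pseudogene rows moved with the gene: the gene row fell from 437 ± 24.2 to 303.5 ± 22.1 reads per M between DMSO (n = 6) and 1000 nM (n = 3), and the pseudogene rows from 332 ± 16.7 to 211.5 ± 33.9. Gene and pseudogenes together stood at 768.5 ± 38.1 and 515 ± 52.4 reads per M (SD). The KRT8 family stood at 1346 ± 159 and 1354 ± 199 reads per M, and the KRT19 family at 299.5 ± 41.0 and 626 ± 131.

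**Figure D4:**
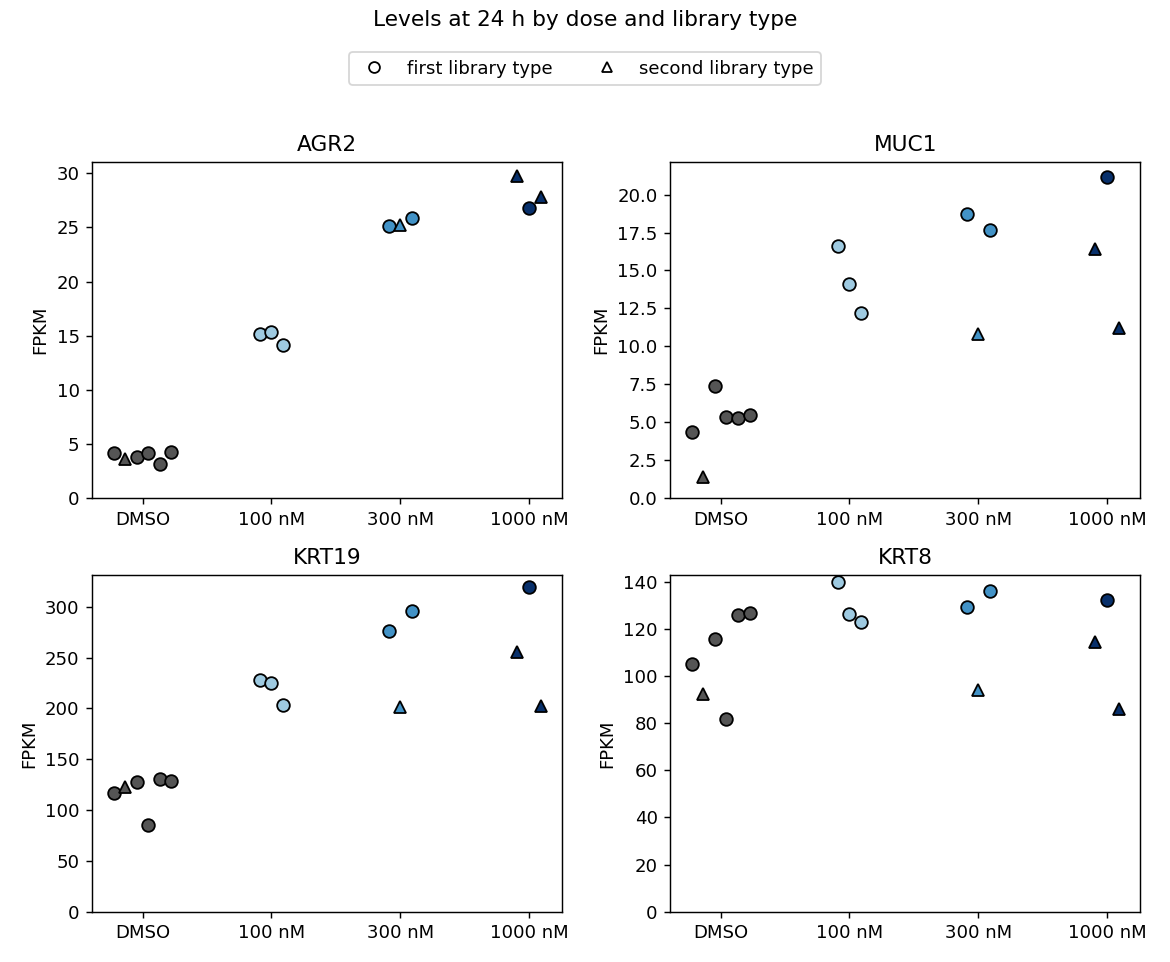
FPKM of AGR2, MUC1, KRT19 and KRT8 in the 15 libraries of 24 h by dose, with circles for the first and triangles for the second library type. MUC1, KRT19 and KRT8 are lower in the triangles than in the circles at 300 and 1000 nM, whereas AGR2 is higher in the triangles at 1000 nM and between the circles at 300 nM. The triangles are also the libraries with the fewest reads at 24 h.

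The library types moved with the levels of several members within a dose. At 24 h the second type had 0.475 to 2.58 M reads and the first 7.54 M or more. Type and depth can therefore not be told apart at 24 h. At 1 h DMSO replicate 3, of the second type, was the deepest library of its group at 30.8 M reads. It was the lowest of that group for ELF3, MUC1, TFF1 and all 4 keratins (MUC1 3.19 FPKM against 5.43 to 7.58). For AGR2 and CDH1 it lay within the range of the others. The part of depth apart from type was not tested. In DMSO at 24 h the library of the second type lay within the first-type range for AGR2, KRT19, KRT18, KRT8 and CDH1. It lay below that range for ELF3, MUC1, KRT7 and TFF1. At 1000 nM and 24 h MUC1 was at 21.2 FPKM in the 1 library of the first type and at 11.2 and 16.4 in the 2 of the second, and KRT19 was at 320 against 202 and 255, KRT8 at 132 against 85.9 and 114, and KRT18 at 104 against 89.1 and 96.4. AGR2 went the other way, at 26.7 FPKM in the first type and 27.8 and 29.7 in the second. At 300 nM the library of the second type was the lowest of the 3 for ELF3, MUC1, TFF1 and all 4 keratins and the highest for CDH1. Within the first type, 5 DMSO libraries against 1 at 1000 nM gave log2 changes of 2.63 for AGR2, 2.16 for ELF3, 1.85 for MUC1, 1.45 for KRT19, 1.23 for TFF1 and -0.37 for KRT18, all past the threshold in limma with adjusted p of 0.00152 or less. With 1 treated library the spread in that fit comes from the other groups, and the lone library is assumed to vary as they do. KRT18 was at -0.37 within the first type and with type terms, against -0.46 over all libraries. What makes the types differ was not tested.

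Pairs of doses were also set against each other, with no DMSO library in the comparison. Between 1000 and 100 nM at 24 h 3 of the 9 genes passed in limma, 2 higher and 1 lower, and 4.94% of all genes passed (2.08% higher, 2.86% lower). AGR2 was 0.89 ± 0.12 higher (adjusted p = 4.34e-07), ELF3 0.71 ± 0.18 higher (0.00932) and KRT18 at -0.34 ± 0.10 (0.0298). The ELF3 call ended without 1000 nM replicate 2 (0.51, adjusted p = 0.0505). The KRT18 call ended without 1000 nM replicate 1 or 3 or 100 nM replicate 1 or 2 (adjusted p between 0.1 and 0.206), and with library type terms (-0.22, adjusted p = 0.069).

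Between 300 and 100 nM AGR2 passed (0.75 ± 0.12, limma adjusted p = 3.35e-05) and 1.17% of all genes did (0.353% higher, 0.813% lower). ELF3 was at 0.56 (adjusted p = 0.138) and passed without 300 nM replicate 2, the library with 1.89 M reads (0.83, adjusted p = 0.00548). Between 1000 and 300 nM 0 of the 9 genes passed in limma, and 2 of all genes (0.0126%) did, or 92 without 1000 nM replicate 2. AGR2 was 0.14 higher at 1000 nM than at 300 nM (95% interval -0.09 to 0.37), ELF3 0.15 higher (-0.19 to 0.49), and KRT19 at 0.00 (-0.35 to 0.35). For MUC1, CDH1 and TFF1 the differences between 1000 and 100 nM were 0.14 (-0.44 to 0.73), -0.12 (-0.48 to 0.23) and 0.54 (-0.24 to 1.33), so that a difference of 1 on the log2 scale is outside the interval for the first pair but not for TFF1. For KRT19 the difference was 0.22. In the 11 alternatives it ran from 0.21 to 0.55 for KRT19 and from 0.14 to 0.56 for MUC1. The second library type, absent at 100 nM, read lower for both genes at 300 and 1000 nM. At 6 h 0 of the 9 genes differed between 1000 and 100 nM, where 0.0189% of all genes passed and ELF3 was at 0.28 (adjusted p = 1, limma).

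Most of these changes appeared late. At 1 h 0 of the 9 genes and 0 of all genes (0%) passed in limma at any dose. Unadjusted p was under 0.05 for 1637, 192 and 809 genes at 1000, 300 and 100 nM, and voom on the recovered reads also called 0. At 3 h 0 of the 9 passed, and 0.132% (0.0252% higher, 0.107% lower), 0.126% (0.0252% higher, 0.101% lower) and 0.0693% (0% higher) of all genes did at 1000, 300 and 100 nM. The 1000 nM effect at 24 h differed from that at 6 h for 6 members, 5 in the higher and 1 in the lower direction (15.1% of all genes passed, 8.16% higher and 6.95% lower). Besides AGR2 these were MUC1 (1.51 ± 0.37, adjusted p = 0.00254), TFF1 (1.52 ± 0.49, 0.0275), KRT19 (0.91 ± 0.22, 0.00205), ELF3 (0.83 ± 0.21, 0.00481) and KRT18 (-0.41 ± 0.12, 0.0113). From 3 h to 6 h no member passed (0.227% of all genes did, 0.0378% higher and 0.189% lower), although ELF3 was at 0.69 (adjusted p = 0.266) and passed without the libraries under 2 M reads (0.86, adjusted p = 0.00493). The increase from 6 to 24 h of the ELF3 effect depended on the scale: with voom it was 0.43 (adjusted p = 0.395).

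Control cells also changed over the day. ELF3 in DMSO rose by 0.74 ± 0.12 from 1 h to 24 h (limma adjusted p = 1.27e-05), from 0.221 ± 0.0755 to 0.726 ± 0.251 FPKM (SD, n = 6 each), and by 2.09 with voom, which adds no 0.5 FPKM. KRT7 was at -0.44 ± 0.12 (adjusted p = 0.00811), going from 109 ± 14.9 to 80.9 ± 17.2 FPKM. The KRT7 call ended without the third library type, which holds 3 of the 6 DMSO libraries of 1 h (-0.34, adjusted p = 0.209), and within the first type (-0.35, adjusted p = 0.0881). AGR2, MUC1, KRT19, KRT18, KRT8 and CDH1 did not pass, with changes from -0.30 to 0.31. KRT18, at 0.18 (adjusted p = 0.0635), passed without DMSO 1 h replicate 4 (0.22, 0.0221) or DMSO 24 h replicate 4 (0.20, 0.047) and with voom (0.22, 0.00725), and CDH1, at 0.31 (0.0896), passed without DMSO 24 h replicate 3 (0.37, 0.0449) and with voom (0.86, 0.0176).

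Other genes of epithelial cells give the setting, taken from lists that were drawn up with earlier results of these data known. The counts that follow are for 1000 nM at 24 h, where 34.7% of all genes passed (19.1% higher, 15.6% lower), and nothing particular to a list is read from them. Of 13 tested junction and surface genes, 4 were higher and 3 lower at 1000 nM and 24 h (median 0.33). CLDN7, a tight junction claudin, rose by 1.38 and MAL2, a transport protein of the apical membrane, by 1.42, while the clathrin adaptor gene AP1M2 stood at -2.12 and CLDN1 at -0.78. Of 11 desmosome and catenin genes, 7 were higher and 1 lower (median 0.75), including the plakoglobin gene JUP at 1.65, the plakin genes PPL at 1.31 and DSP at 1.06, and PKP2, a plakophilin, at -0.87. Of 6 epithelial transcription factor genes 2 were higher and 1 lower: SPDEF at 1.43, EHF, an ETS factor of the same subfamily as ELF3, at 0.71, and KLF5 at -0.30.

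Of the hormone receptor program of luminal cells, 11 of the 21 genes in the table were high enough to test, and 4 were higher and 2 lower (median 0.27) at 1000 nM and 24 h, beside 34.7% of all genes. ESR1, PGR and FOXA1 did not pass the filter on low values. The carbonic anhydrase gene CA12 rose by 1.63, the receptor gene ERBB3 by 0.91 and CXXC5 by 0.70, and the survival gene BCL2 fell by 0.98. The remaining 2 were named after their values were seen. The transcription factor gene GATA3 stood at -0.62 (3.74 FPKM in DMSO and 2.36 at 1000 nM), and XBP1 was higher by 0.41. Of 3 tested mucin and secreted protein genes 2 were higher, S100P at 1.76 and TFF2 at 1.58. The third, named after its values were seen, was LCN2 at 0.38 (limma adjusted p = 0.198). In DMSO all 3 were lower at 24 h than at 1 h, as were 8.45% of all genes. These changes were -0.88 for S100P, -2.16 for TFF2 and -1.44 for LCN2. Of 5 other keratins 1 was higher (KRT15 at 0.97) and 1 lower (KRT80 at -0.76), a share close to that of all genes. Of 21 folding and stress genes of the endoplasmic reticulum, the compartment of AGR2, 12 were higher and 1 lower (median 0.29), with the chaperone genes DNAJB9 at 0.79 and HSP90B1 at 0.59, the degradation gene HERPUD1 at 0.71 and SDF2L1 at -1.23.

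Basal and mesenchymal genes changed in both directions. Of 10 basal markers 4 were higher and 3 lower (median 0.14), with the integrin genes ITGB4 at 1.73 and ITGA6 at 1.06 and the laminin gene LAMA3 at 0.79. The 3 lower ones, named after their values were seen, were TAGLN at -0.66, CAV1 at -0.46 and MYLK at -0.25. Of 10 mesenchymal markers and CDH1 repressors 7 were higher and 3 lower (median 0.37), beside 19.1% and 15.6% of all genes. Fibronectin (FN1) rose by 1.48 and CDH11, a mesenchymal cadherin, by 0.76, while the receptor tyrosine kinase gene AXL stood at -1.28 and the CDH1 repressor gene SNAI1 at -0.73. SNAI1 passed at 24 h only at this dose (limma adjusted p = 0.0353). It was at -0.19 at 300 nM and 0.33 at 100 nM (0.662 and 0.458), and at 0.94 at 1000 nM and 6 h (0.0671). Of the other CDH1 repressors tested, which were named after their values were seen, SNAI2 stood at -0.51 and ZEB1 was higher by 0.57 (adjusted p = 0.00357, limma). The summed FPKM of the 13 listed mesenchymal genes was 1336 to 1542 in DMSO and 1915 to 2017 at 1000 nM at 24 h. This sum is weighted toward abundant genes. S100A4, named after its values were seen, had means of 573 FPKM in DMSO and 928 at 1000 nM, whereas AXL had 187 and 76.9.

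Markers of cells that should be absent from the line were low. The 7 fibroblast genes summed to 3.54 to 7.17 FPKM in DMSO and 6.74 to 8.47 at 1000 nM at 24 h, with COL1A2 higher by 0.60. The 4 endothelial genes in the table summed to 0.614 to 1.20 and 0.316 to 0.575 FPKM, with KDR at -0.47. The 6 leukocyte genes summed to 1.17 to 2.39 and 3.42 to 4.91 FPKM, with the lysozyme gene LYZ higher by 1.38, while CD3E was at 0 in every library and PTPRC reached at most 0.101 FPKM. The part of these sums in the results above was not tested.

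Across the 16 group means of log2(FPKM + 0.5), the members that rose at 24 h resembled each other, as a description over groups that share DMSO libraries, times and library types. Because these members were picked by their rise in the same groups, a high r between them follows in part from that choice. Pearson's r was 0.97 for MUC1 and KRT19, 0.95 for ELF3 and KRT19, 0.94 for AGR2 with CDH1 and with KRT19, and 0.87 for AGR2 and ELF3. TFF1 stood apart with r of -0.40 to AGR2 and 0.69 to KRT7, the other member that was lower in DMSO at 24 h. Among 13554 tested genes with a mean of at least 1 FPKM, the 3 most like AGR2 were GBP2, ENDOD1 and EPHA4, those most like ELF3 TP53INP1, HBP1 and SLC2A14, and those most like MUC1 SELPLG, HID1 and TCTA (r of 0.98 to 0.99 for all of these). KRT19 was most like GSN, CLDN7 and FZD1 (r of 0.99 to 1.00), CDH1 most like NEDD9, SCNN1A and VPS39 (0.98 each), and TFF1 most like C3, SLC22A4 and CHI3L2 (0.96 to 0.97). KRT18 was most like its own pseudogenes KRT18P13 (0.95) and KRT18P21 (0.93) and ALPP (0.92). KRT8 was most like NAA38, MRPL43 and BSG (0.97 to 0.98) and KRT7 most like KLHL21, ANGPTL4 and RARA (0.96 to 0.97).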

How the data were processed

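RNA of 60 MDA-MB-231 libraries (TruSeq stranded mRNA, single reads) was measured. The submitters' processing notes name the build hg19 and the tools STAR 2.4.2a, featureCounts 1.4.6-p2 from Subread, and DESeq2. Which annotation served for counting is not stated in the sources. The deposited values are log2(FPKM + 1) made by the authors for 38342 gene names. They were turned back into FPKM, and whole reads were recovered from the steps between values (1304094 nonzero values, 100% of them whole to within 0.01 read). The intervals given with the log2 changes come from the SE of limma, which measures the spread between libraries. The limits given where no read was found cover counting error only. The reads carry no molecular identifiers.

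The test was limma 3.58.1 (R 4.3.3). It took log2(FPKM + 0.5) of 15866 genes that reached 1 FPKM in 3 or more libraries, with 1 mean for each of 16 groups, a mean-variance trend, robust variances and 44 residual degrees of freedom. Benjamini-Hochberg adjustment ran over all tested genes within each of 19 comparisons, with a threshold of 0.05. A fold change on the log2(FPKM + 0.5) scale understates the change of low genes. Each member is named in every comparison, as are up to 4 genes per list with the largest change past the threshold at 1000 nM and 24 h, and the 3 genes most like each member; 1 gene that this rule names is not reported here. ESR1, PGR, FOXA1, VIM, CD3E and PTPRC were named as defining markers after their values were seen. The members and the lists were chosen with earlier results of these data known.

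On reads simulated for 1000 nM against DMSO at 24 h (15866 genes, 200 of them changed), limma recovered 89.5% of genes changed by 1 and 89.5% of those changed by 2 on the log2 scale, and called 66 unchanged genes, more than the threshold allows. With voom, which weights values by depth, these values were 88.4%, 93.9% and 5. The simulated reads had the same spread beyond counting error for every gene and no library types. These rates therefore describe that setting and may not hold for the real libraries. In the real comparison of 1000 nM with DMSO at 24 h, 2 of the 3 treated libraries had 2.27 and 2.58 M reads. For this reason voom (limma) on the recovered reads, scaled by library totals, is given as an alternative. It called the same 7 members at 1000 nM, with adjusted p from 1.52e-28 (AGR2) to 0.00423 (CDH1). Planned fits with TMM, edgeR or DESeq2 were not run, because these tools were kept for deposited counts. The recovered reads would have allowed them, and only voom was run on those reads. Other alternatives were pseudocounts of 0.1 and 1, no filter, array weights, median-of-ratios scaling, a fit of the compared groups alone, terms for the library types, the first type only, no libraries under 2 M reads, and leaving out each library; voom as run and leaving out the third type were added after the data were seen.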

Additional observations from a re-analysis of the deposited data

Results flagged for a closer look

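In DMSO at 24 h, 3 values stood far from the other 5 libraries of their group by Dixon's test, which picks out about 1 group in 20 by chance (36 groups of 6 were checked). MUC1 in replicate 2 was at 1.395 FPKM (2 reads) against 4.35 to 7.41 in the others, and TFF1 in the same library was at 0 FPKM (0 reads) against 1.90 to 4.23. This library has 0.475 M reads and is of the second type. KRT19 in replicate 4 was at 85.1 FPKM (1558 reads) against 116 to 131 in the others, in a library of the first type with 7.54 M reads.

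The effect of 1000 nM differed between 24 h and 6 h by limma's test of the difference for 6 members. The differences on the log2 scale (24 h minus 6 h) were 2.65 for AGR2, 1.52 for TFF1, 1.51 for MUC1, 0.91 for KRT19, 0.83 for ELF3 and -0.41 for KRT18, while KRT8, KRT7 and CDH1 did not pass.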

How the results depend on the processing

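For the 171 single results (9 members in 19 comparisons), 3418 of 3501 refits kept the direction and the side of the threshold, 45 lost a call, 38 gained one and 0 called changes turned sign. AGR2, ELF3, MUC1 and KRT19 at 24 h kept their calls at every dose in all 11 alternatives and without any 1 library, and KRT18 did so at 300 and 1000 nM. With only the groups compared, TFF1 at 1000, 300 and 100 nM had adjusted p of 0.142, 0.153 and 0.374, and CDH1 at 1000 nM 0.0722. TFF1 at 100 nM also lost its call with voom (0.59, adjusted p = 0.105) and without the libraries under 2 M reads (0.56, 0.0665). The difference between the 1000 nM effects at 24 h and 6 h lost its call in several refits (limma adjusted p given last). For ELF3, an increase, this happened with a pseudocount of 0.1 (0.64, 0.232) and with only the groups compared (0.83, 0.0619). For KRT18, a decrease, it happened without 1000 nM 24 h replicate 3 (-0.36, 0.0577) and within the first type (-0.27, with 1 treated library at 24 h). For TFF1, an increase, it happened with a pseudocount of 0.1 (0.0714), no filter (0.0587) and only the groups compared (0.248). The TFF1 call was also lost without 1000 nM 6 h replicate 1 or 2 (0.0597 and 0.0571) or 1000 nM 24 h replicate 1 (0.113). ELF3 at 1000 against 100 nM lost its call with a pseudocount of 0.1 (0.80, 0.085). The causes were not tested, apart from the smaller number of libraries where groups were left out.

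The number of members past the threshold moved as follows. With array weights it was 2 at 1000 nM and 1 h, 1, 2 and 1 at 1000, 300 and 100 nM at 3 h, 3 and 2 at 1000 and 100 nM at 6 h, 6 for 300 against 100 nM, 1 for 1000 against 300 nM and 1 for the change of the effect from 3 to 6 h. With only the groups compared it was 1 at 300 nM and 6 h, and 0 for 1000 against 100 nM and for 300 against 100 nM at 24 h. For 300 against 100 nM it was 2 with a pseudocount of 1, voom, type terms, the first type only and without the libraries under 2 M reads, and the range without 1 library was 1 to 2. The change of the effect from 3 to 6 h had 1 member within the first type and without the libraries under 2 M reads, and DMSO at 24 h against 1 h had 5 with voom and with type terms. KRT18 passed there in 5 of 11 alternatives. At 300 nM and 6 h it was 1 to 2 without 1 library. Over all genes, the counts at 24 h of 5506, 4864 and 3122 (1000, 300 and 100 nM) were 2987, 2695 and 1966 with only the groups compared and 7753, 9156 and 6226 with array weights, and those at 6 h of 319, 265 and 137 were 1222, 767 and 535 within the first type and 117, 74 and 49 with only the groups compared. Leaving out 1 library took the count at 100 nM and 24 h to 2061 (without 100 nM replicate 1), those at 6 h to 173, 165 and 65 (without 1000 nM replicate 3, 300 nM replicate 1 and 100 nM replicate 2), and that of 784 for 1000 against 100 nM at 24 h to between 354 (without 1000 nM replicate 1) and 2713 (without 1000 nM replicate 2). At 3 h the counts of 21, 20 and 11 were 2, 4 and 2 with only the groups compared and 1978, 2549 and 3413 with array weights. Without 1 library they ran from 13 (without 1000 nM replicate 2) to 34 (without 1000 nM replicate 1), from 10 (without 300 nM replicate 2) to 23, and from 6 (without 100 nM replicate 3) to 16. At 1 h array weights called 6032 genes at 1000 nM, and for 1000 against 300 nM at 24 h 6535.

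No paired analysis was possible because the labels give each library a running number of its own, so no replicate number is shared between groups. Depth limits ELF3, CDH1 and TFF1 most: the DMSO library of 0.475 M reads holds 1, 1 and 0 reads of them.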
